A study of Mus musculus with 14 samples.

Results

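The collagen family was followed through the bone marrow adipose tissue of the distal tibia. Its members were chosen by symbol alone, as the genes of the deposited count matrix named Col with a collagen type number followed by a chain number, and these were 42 of 23441 genes. By the structure their chains build, 11 were fibrillar (types 1, 2, 3, 5, 11, 24 and 27), 9 network-forming (types 4, 8 and 10), 6 beaded (type 6), 8 fibril-associated collagens with interrupted triple helices (FACIT) and 8 of other kinds. RNA came from marrow plugs of male C57BL6/SJL mice aged 24 weeks, with the plugs of 2 mice pooled in each sample. Control BMAd-Pnpla2+/+ mice gave 4 samples fed ad libitum (AL) and 4 samples under 30% caloric restriction (CR) for 6 weeks, and BMAd-Pnpla2-/- mice gave 3 AL and 3 CR samples. BMAd-Pnpla2-/- mice lack part of Pnpla2, which encodes the lipase ATGL, in bone marrow adipocytes, because FLPo made from the Osterix locus turns on a Cre placed after an internal ribosome entry site in the Adipoq gene. Mice of both genotypes carried the FLPo and Cre alleles, and the controls lacked the floxed Pnpla2 alleles. Recombination through this Cre may be incomplete, and it also occurs in a small subset of stromal cells.

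Collagens are trimers of chains wound into a triple helix, and the class sets what the trimers build. Fibrillar collagens assemble into the cables that give bone and connective tissue their tensile strength, type IV collagen forms the sheet-like network of basement membranes around adipocytes and blood vessels, and type VI collagen forms beaded microfilaments close to cell surfaces, in fat tissue among others. FACIT collagens sit on the surface of fibrils, and the remaining members include transmembrane collagens and the multiplexins of vascular basement membranes.

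Many collagen genes stood higher with CR in BMAd-Pnpla2+/+ mice and only Col25a1 passed the test in BMAd-Pnpla2-/- mice, while neither genotype comparison nor the interaction of genotype and diet gave a collagen gene at an adjusted p (padj) under 0.05. The plot of fold changes by class shows this for every tested member. Of the 42 members, 37 passed a filter on low counts and were tested. The other 5, Col24a1, Col4a6, Col10a1, Col9a2 and Col17a1, had between 38 and 97 reads over all 14 samples.

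**Figure D1:**
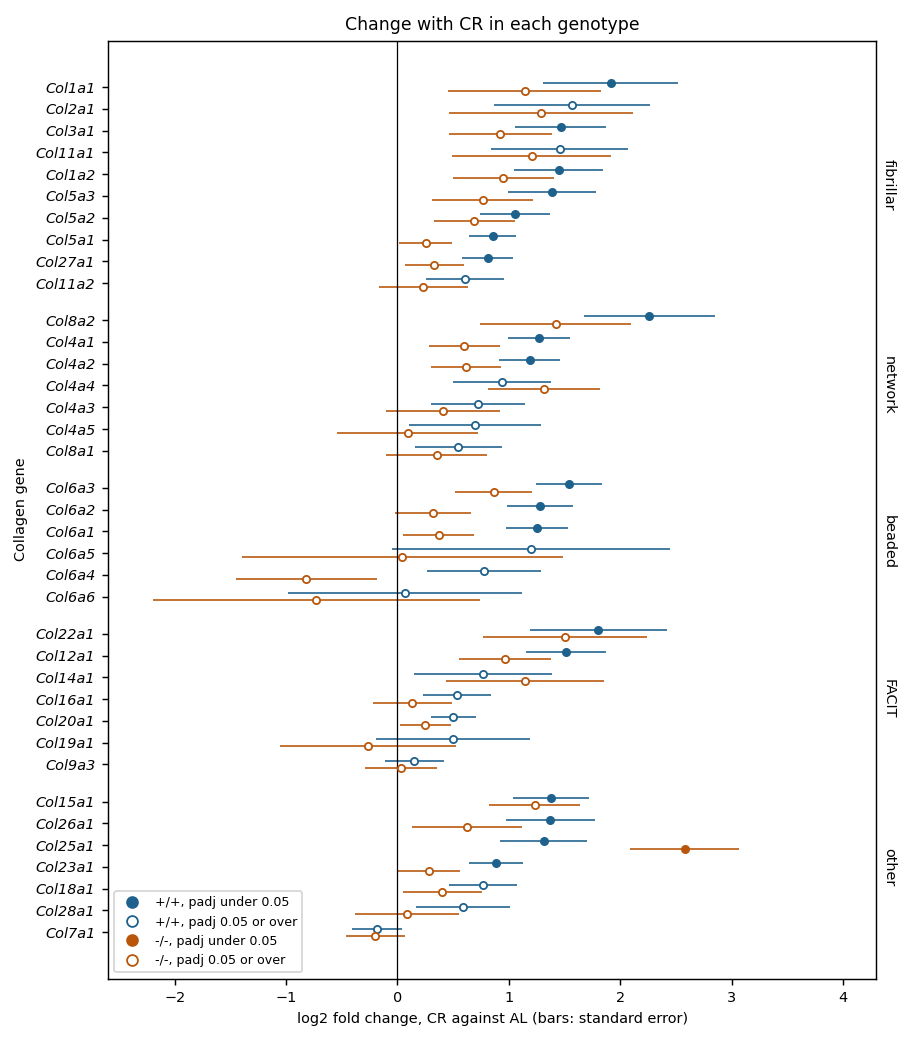
Change of each tested collagen gene with CR. The x axis is the log2 fold change of CR against AL with its standard error, blue for BMAd-Pnpla2+/+ and orange for BMAd-Pnpla2-/- mice, filled where padj was under 0.05, and genes are listed by class. Filled blue points number 19 and the single filled orange point is Col25a1, at a log2 fold change of 2.58.

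Some of the genes that rose are printed with the sequence that precedes their start, since members that moved together may be compared in this way. Of the 42 members, 33 had an entry in the RefSeq promoter table (GRCm38.p6), and among members that rose with CR in BMAd-Pnpla2+/+ mice, 8 had the same start base in RefSeq and in GENCODE M21. The 6 whose 120 bases before the start touch no annotated exon are shown on their gene's strand, 5′ to 3′. Capitals mark a match to the letters GGGCGG, to CCAAT or to TATAAA on either strand, so that a match on the other strand appears as the reverse complement. The windows are chr1:45311418-45311537 for Col3a1, chr2:27886305-27886424 for Col5a1 and chr11:51289800-51289919 for Col23a1 on the forward strand, and chr9:20815068-20815187 for Col5a3, chr10:76623631-76623750 for Col6a2 and chr1:90843972-90844091 for Col6a3 on the reverse strand.
Col3a1: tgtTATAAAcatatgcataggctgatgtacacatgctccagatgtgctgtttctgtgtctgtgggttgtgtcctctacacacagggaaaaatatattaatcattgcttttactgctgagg
Col5a1: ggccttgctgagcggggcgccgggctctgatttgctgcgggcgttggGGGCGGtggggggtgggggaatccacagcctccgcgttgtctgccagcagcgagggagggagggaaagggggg
Col5a3: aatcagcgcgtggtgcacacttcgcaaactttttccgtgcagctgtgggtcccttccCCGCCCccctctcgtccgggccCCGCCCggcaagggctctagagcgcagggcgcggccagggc
Col6a2: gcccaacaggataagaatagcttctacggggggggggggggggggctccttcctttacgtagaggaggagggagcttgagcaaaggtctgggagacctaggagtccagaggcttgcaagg
Col6a3: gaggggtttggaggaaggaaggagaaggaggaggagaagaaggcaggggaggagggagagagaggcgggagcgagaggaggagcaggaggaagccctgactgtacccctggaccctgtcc
Col23a1: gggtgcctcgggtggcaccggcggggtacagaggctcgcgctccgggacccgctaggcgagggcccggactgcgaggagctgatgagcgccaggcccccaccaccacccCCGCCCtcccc

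The G and C content of these stretches was 40.0% for Col3a1 and between 60% and 77.5% for the other 5. The only TATAAA lay 117 bases before the start of Col3a1. GGGCGG or its complement began 73 bases before the start of Col5a1, 63 and 41 before that of Col5a3 and 11 before that of Col23a1, and the printed windows of Col6a2 and Col6a3 held none of the 3 motifs. Outside its printed window, the complement of GGGCGG lay 175 bases before this start of Col6a2, and 67 and 15 before its other RefSeq start. Over the 250 bases before the start, 62.9% of the 35 member windows held GGGCGG on either strand, against 32.7% of the 32851 windows in the table, while CCAAT was in 34.3% against 33.8% and TATAAA in 11.4% against 12.4%. A match of letters is given as a description of these windows alone.

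The 2 main chains of basement membrane collagen share their start region. Col4a1 on the reverse and Col4a2 on the forward strand of chromosome 8 begin so close together that their first exons overlap, at chr8:11312805-11312826, by 22 bases, which read on the forward strand as follows.
Col4a1 and Col4a2: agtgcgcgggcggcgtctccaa
Reads over such a stretch cannot be given to either gene by counts without strand, but the overlap made up 0.295% of the exon bases of Col4a1 and 0.332% of those of Col4a2. The Col4a3 and Col4a4 starts on chromosome 1 lie 71 bases apart in the same head-to-head arrangement.

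Between 18658806 and 21339006 reads were counted on genes of the matrix in each sample, and values are these counts scaled to a common library total after TMM scaling (CPM). Collagen genes took between 0.123% and 0.832% of the gene reads. Counts regardless of strand were used throughout, because the libraries of BMAd-Pnpla2-/- CR mice held 50.2% ± 0.223 (SD, n = 3) of their strand-assigned reads on the first strand and the other 3 groups means of 4.42% to 4.51%. This library type and the BMAd-Pnpla2-/- CR group cannot be told apart. Pnpla2, the deleted gene, had 304.9, 176, 202 and 192 CPM in the AL and 816, 1006, 1029 and 509 CPM in the CR libraries of BMAd-Pnpla2+/+ mice, and for BMAd-Pnpla2-/- mice 137, 172 and 133 CPM with AL and 179.6, 222 and 271 CPM with CR. It was lower in BMAd-Pnpla2-/- CR than in BMAd-Pnpla2+/+ CR mice (log2 fold change -1.91 ± 0.258 (SE), padj = 0.0387), and in AL mice the difference of -0.57 ± 0.247 did not pass (padj = 0.99997).

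Per kilobase of exon (RPKM), the family was dominated by a few genes. Col1a1 and Col1a2, whose chains form type I collagen, the bulk protein of bone, made up on average 29.0% and 17.7% of the summed RPKM of the 42 members. Col6a1 with 9.52%, Col4a1 with 9.03% and Col4a2 with 7.20% came next, and the 11 highest members made up 90.3%. The order of the first 2 depends on the length used, since with the longest annotated transcript in place of all exons Col1a2 took 29.7% and Col1a1 23.1%. At the other end, Col4a6, Col24a1 and Col6a6 had mean levels of 0.0346, 0.0414 and 0.0427 RPKM over the 14 samples.

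**Figure D2:**
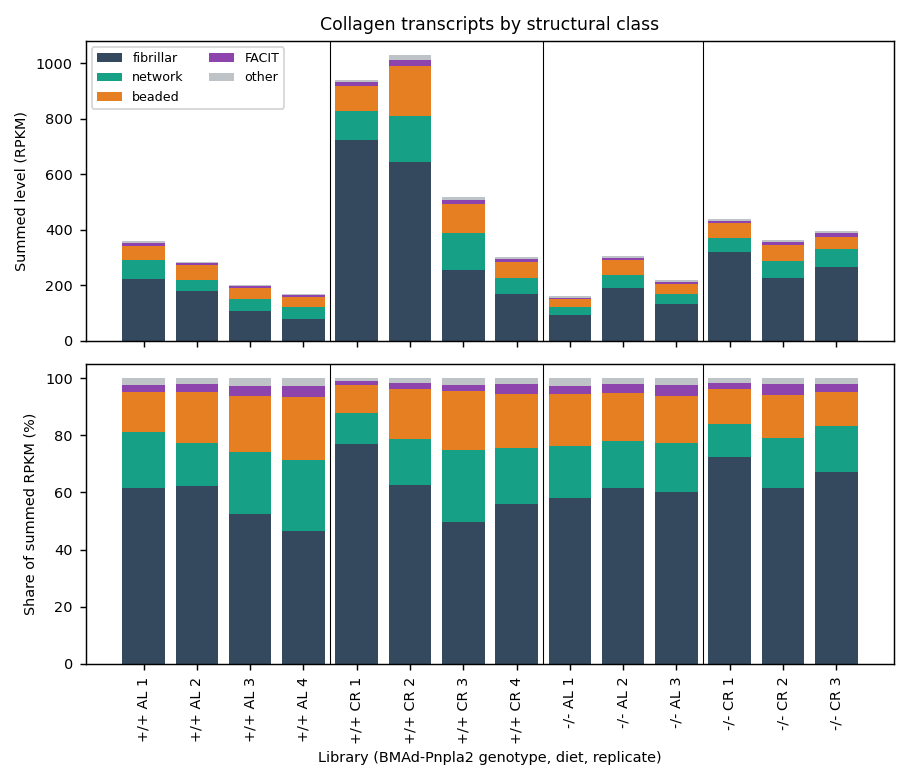
Collagen transcripts of each library by class. The upper bars stack the summed RPKM of the 5 classes and the lower bars the percent share of each class, with libraries ordered by group and replicate. The sums reach 942 and 1030.1 RPKM in BMAd-Pnpla2+/+ CR replicates 1 and 2 and lie between 160 and 517 RPKM in the other 12 libraries.

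In BMAd-Pnpla2+/+ mice (n = 4 each), the summed level was 253 ± 86.2 RPKM (SD) with AL and 697 ± 346 RPKM with CR. In BMAd-Pnpla2-/- mice (n = 3 each), it was 228 ± 73.6 RPKM with AL and 399.6 ± 37.9 RPKM with CR. The spread in BMAd-Pnpla2+/+ CR mice was wide, with 942, 1030.1, 517 and 301 RPKM, and its lowest library lay below the highest AL library at 359.5. Fibrillar members made up 55.8% ± 7.56, 61.3% ± 11.7, 59.9% ± 1.71 and 67.2% ± 5.44 of the sum in these groups in the same order. Among the BMAd-Pnpla2+/+ CR libraries alone their share ran from 49.6% to 76.9%, a wider gap than that between any group means. Beaded members had 18.5% ± 3.40, 16.8% ± 4.83, 17.3% ± 0.899 and 12.99% ± 1.73. Network members had 20.2% ± 4.16, 17.9% ± 6.01, 17.3% ± 0.850 and 14.96% ± 3.25. No test was run on these shares.

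The first comparison asked how collagen transcripts changed with CR in mice whose marrow adipocytes kept ATGL. In BMAd-Pnpla2+/+ mice, 19 of the 37 tested members rose and none fell at padj under 0.05 in edgeR's quasi-likelihood test, where 15% of all 17494 tested genes rose and 10.9% fell. With the added criterion of a log2 fold change over 1, 16 members were called, against 7.26% of all genes. The median log2 fold change was 1.05 over the 37 members and 0.00 over all genes, and 36 members had a value above 0, the exception being Col7a1 of anchoring fibrils at -0.18. The CR and AL samples did not overlap for 8 of the 37 members, and 12.3% of all tested genes stood higher in this way. The count depends on a few libraries: 9 members passed without AL replicate 3, 12 without AL replicate 4 and 10 without CR replicate 2. The share of all tested genes that passed fell too, from 26% to 16.4%, 19.3% and 15.2% in these fits.

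**Figure D3:**
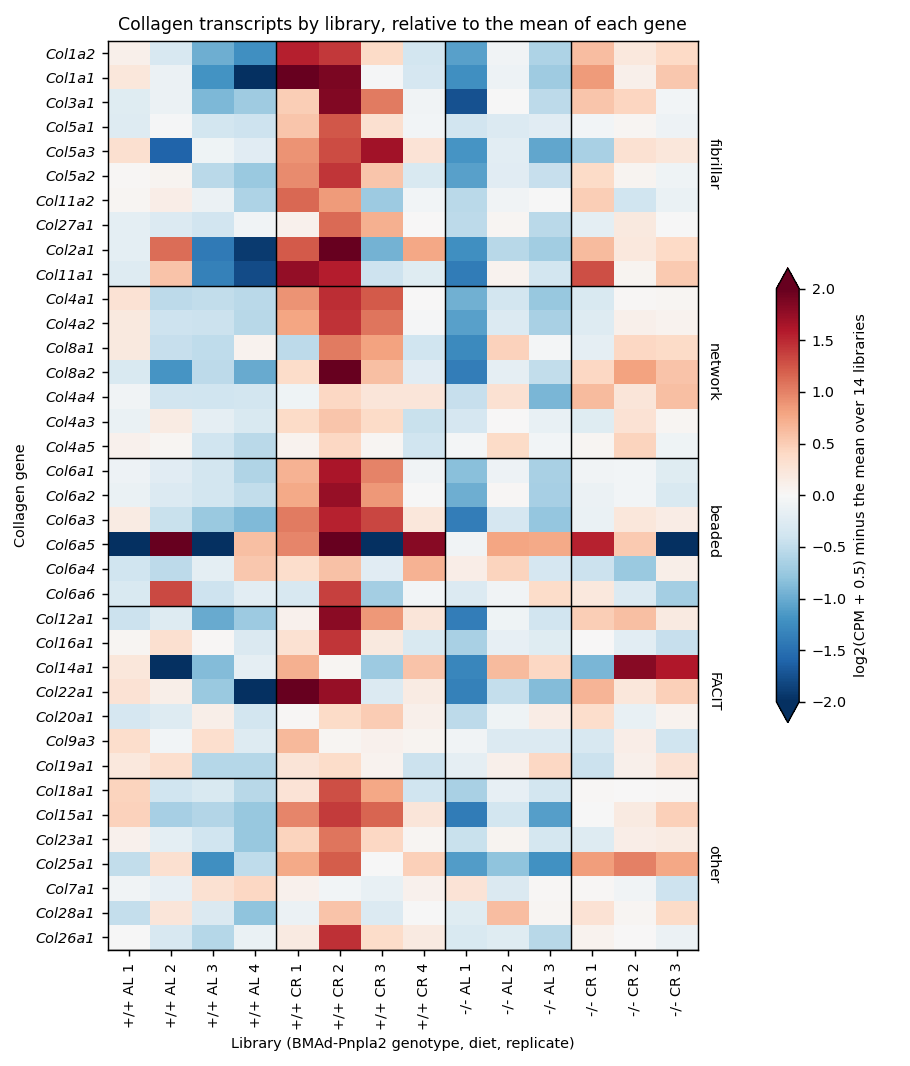
Every tested member in every library. Colour gives log2(CPM + 0.5) minus the gene's mean over the 14 libraries, red for higher and blue for lower, with genes grouped by class and libraries by group. BMAd-Pnpla2+/+ CR replicate 2 was the highest library of its group for 26 of 37 members, and replicate 4 the lowest for 20.

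Among fibrillar collagens, 7 of the 10 tested members rose with CR in BMAd-Pnpla2+/+ mice, with a class median of 1.42. Col1a1 had 736, 574, 273 and 137 CPM in the AL libraries and 3066, 2316, 617.9 and 495 in the CR libraries. The groups overlapped, because CR replicates 3 and 4 stood below AL replicate 1. The log2 fold change was 1.92 ± 0.606 (SE, padj = 0.0353), and its call was lost in 5 of 14 fits made without 1 library each. Col1a2, which supplies the partner chain of type I collagen, had 812, 609.6, 384 and 322 CPM with AL and 2218, 2019, 987 and 588 with CR. It rose by 1.45 ± 0.400 (padj = 0.0210), again with CR replicate 4 inside the AL range.

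Col3a1, the chain of type III collagen found in pliable connective tissue and the reticular fibres of marrow, had 102, 111, 64.2 and 73.3 CPM with AL and 170.3, 435, 249 and 114 with CR. All CR libraries stood above all AL libraries, and the log2 fold change was 1.46 ± 0.405 (padj = 0.0212). Col5a1, a chain of the type V collagen that nucleates type I fibrils, had 80.6, 94.8, 74.5 and 71.9 CPM with AL and 141, 228, 120.2 and 92.3 with CR. It rose less, by 0.85 ± 0.207 (padj = 0.0126), with CR replicate 4 below AL replicate 2. The other type V chains rose by 1.05 (Col5a2, padj = 0.0288) and 1.39 (Col5a3, padj = 0.0239). Col27a1, a minor fibrillar collagen of cartilage, had the smallest change among called members, 0.81 ± 0.229 (padj = 0.0225), from 17.2, 16.2, 14.9 and 18.6 CPM to 21.0, 43.9, 32.7 and 19.8. The groups did not overlap. The fibrillar collagens of cartilage, Col2a1 (1.57 ± 0.701, padj = 0.111), Col11a1 (1.46 ± 0.618, padj = 0.0959) and Col11a2 (0.61 ± 0.348, padj = 0.208), did not pass the test.

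Of the network-forming collagens, 3 of 7 tested members rose, with a class median of 0.94. Col4a1 had 277, 157, 160.1 and 156 CPM in AL libraries and 422, 634, 528 and 228 in CR libraries. Only CR replicate 4 lay below the highest AL library. The log2 fold change was 1.27 ± 0.279 (padj = 0.00831), and it was called in each of the 14 fits without 1 library. Col4a2 followed its partner, with 184, 121, 119.9 and 109 CPM against 279.7, 441, 338 and 158, and rose by 1.19 ± 0.274 (padj = 0.0102). Here too CR replicate 4 was the library inside the AL range. Col4a3, Col4a4 and Col4a5, known from the basement membrane of the kidney filter, had group means from 0.204 to 1.13 CPM and changes of 0.72, 0.94 and 0.70 that did not pass (padj = 0.213, 0.127 and 0.397).

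The type VIII collagens form hexagonal lattices in vessel walls and in the cornea. Col8a2 had the largest change of any called member, 2.26 ± 0.588 (padj = 0.0169). Its values were low, at 2.203, 0.963, 1.83 and 1.15 CPM with AL and 3.795, 18.8, 4.56 and 2.35 with CR, and CR replicate 2 stood far above the other 3. Without that library the log2 fold change was 1.22 and still called (padj = 0.0443). Col8a1 was more abundant, with 37.3, 23.4, 22.8 and 34.1 CPM against 22.5, 67.3, 57.3 and 24.7. Its CR replicates 2 and 3 lay above and the other two near the bottom of the AL range, and its value of 0.55 ± 0.395 did not pass (padj = 0.313).

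Of the 6 beaded collagens, the 3 that build the common form of type VI collagen rose. Col6a1 had 131, 120.4, 109 and 92.1 CPM with AL and 227, 438, 279.7 and 134 with CR. The groups did not overlap, and the log2 fold change was 1.25 ± 0.278 (padj = 0.00864). Col6a2 had 105, 96.0, 90.03 and 82.3 CPM against 195, 387, 210.4 and 115, also without overlap, and rose by 1.28 ± 0.297 (padj = 0.0105). Col6a3, whose chain carries a long tail from which the fragment endotrophin is cut, had 92.5, 60.4, 49.1 and 44.7 CPM against 171, 240.4, 209.8 and 96.9. It had the smallest padj of the family, 0.00506, at a log2 fold change of 1.54 ± 0.299, and AL replicate 1 and CR replicate 4 nearly met. All 3 were called in each fit without 1 library.

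The alternative chains of type VI collagen did not pass the test. Col6a5 was singled out after its values were seen, for its spread within groups. BMAd-Pnpla2+/+ mice had 0.636, 67.5, 0.783 and 20.5 CPM with AL and 26.8, 127, 1.76 and 48.6 CPM with CR. BMAd-Pnpla2-/- mice had 12.7, 23.5 and 23.2 CPM with AL and 40.2, 19.6 and 1.59 CPM with CR. High and low libraries occurred in 3 of the 4 groups, and its change with CR in BMAd-Pnpla2+/+ mice was 1.20 ± 1.25 (padj = 0.495). Col6a6, its neighbour on chromosome 9, reached 1.497 and 1.57 CPM in BMAd-Pnpla2+/+ AL replicate 2 and CR replicate 2, the same libraries in which Col6a5 was at its highest, and at most 0.536 CPM elsewhere. Col6a4 had a change of 0.78 ± 0.512 (padj = 0.269).

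Among FACIT collagens, 2 of 7 tested members rose and the class median was 0.54. Col12a1, which decorates type I fibrils, had 33.0, 37.1, 22.1 and 26.9 CPM with AL and 47.4, 158, 81.9 and 53.2 with CR. No CR library reached down to the AL range, and the log2 fold change was 1.51 ± 0.362 (padj = 0.0119). Col22a1, named after its values were seen and known from the junctions of muscle and tendon, rose by 1.80 ± 0.616 (padj = 0.0464), from 5.48, 4.81, 2.45 and 0.577 CPM to 21.9, 16.01, 3.56 and 5.03. CR replicates 1 and 2 held the highest values, as they did for Col1a1, and Col22a1 was called in only 6 of the 14 fits without 1 library. Col16a1 had 18.1, 22.1, 18.01 and 14.3 CPM against 22.0, 48.6, 20.2 and 14.2, and apart from CR replicate 2 its CR values lay within or just below the AL range (0.54 ± 0.302, padj = 0.200).

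Of the 7 other collagens tested, 4 rose and the class median was 0.88. Col15a1, a multiplexin that links basement membranes to the fibrils beneath them, had 8.91, 3.797, 4.02 and 3.51 CPM with AL and 12.9, 17.4, 14.7 and 7.54 with CR. Its rise of 1.38 ± 0.342 (padj = 0.0136) held in each fit without 1 library. Col18a1, the multiplexin from which endostatin is cut, had 39.6, 21.9, 23.4 and 19.6 CPM against 35.0, 71.5, 49.8 and 21.8, and its change of 0.77 ± 0.303 did not pass (padj = 0.0761). The transmembrane collagen Col23a1 rose by 0.88 ± 0.246 (padj = 0.0209), from 7.05, 5.67, 4.85 and 3.70 CPM to 9.18, 14.4, 8.89 and 6.79. AL replicate 1 lay above CR replicate 4 for Col23a1. Col25a1 and Col26a1 rose by 1.31 (padj = 0.0275) and 1.37 (padj = 0.0244) at levels under 5 CPM.

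**Figure D4:**
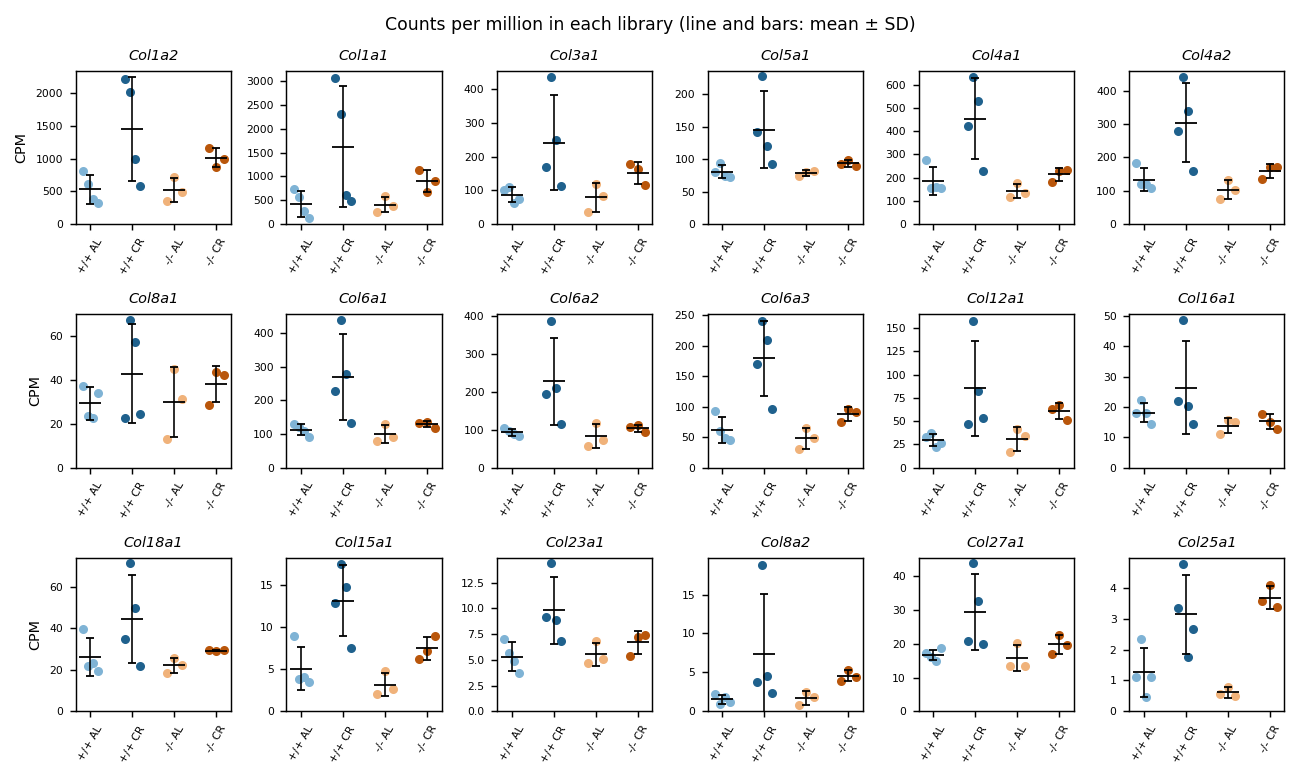
CPM of 18 collagen genes in each library, by group. Points are libraries, the line is the group mean and bars are the SD, each panel has its own axis from 0, and the lower bar of Col8a2 in BMAd-Pnpla2+/+ CR runs past the axis. Col6a1 and Col6a2 separate CR from AL libraries only in BMAd-Pnpla2+/+ mice, and Col1a1 and Col1a2 only in BMAd-Pnpla2-/- mice. Of the 37 tested members, 8 stood higher without overlap in BMAd-Pnpla2+/+ CR mice, against 12.3% of all tested genes. In BMAd-Pnpla2-/- CR mice 15 did, against 20.5%.

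The next comparison asked whether the change with CR was seen in mice with Pnpla2 deleted in bone marrow adipocytes. In BMAd-Pnpla2-/- mice, 1 of 37 tested members rose and none fell, while 6.01% of all tested genes rose and 5.57% fell. The same member was the only one past both criteria, against 2.59% of all genes. At an unadjusted p under 0.05 there were 5 members, and 29.1% of all tested genes. Most values still lay above 0, for 33 of 37 members with a median of 0.41, where the median over all genes was 0.05. CR and AL samples did not overlap for 15 of the 37 members, against 20.5% of all tested genes that stood higher in this way. Fitted on the 6 BMAd-Pnpla2-/- samples alone, 16.2% of all tested genes passed and so did 7 members, Col25a1, Col15a1, Col1a1, Col1a2, Col2a1, Col22a1 and Col8a2.

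Col25a1, a transmembrane collagen known for its part in the innervation of muscle, was named for this call after its values were seen. Its level was 0.551, 0.800 and 0.482 CPM with AL and 3.58, 4.10 and 3.38 CPM with CR, from 10, 15 and 9 reads and 67, 77 and 68 reads. The groups were far apart, at a log2 fold change of 2.58 ± 0.490 (padj = 0.00978). In BMAd-Pnpla2+/+ mice it had 1.13, 2.35, 0.470 and 1.11 CPM with AL and 3.36, 4.76, 1.76 and 2.67 with CR. The difference of the 2 changes was 1.26 ± 0.624 and did not pass (padj = 0.502). Its call in BMAd-Pnpla2-/- mice held in each of the 14 fits without 1 library.

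The leading members of each class had smaller values here than in BMAd-Pnpla2+/+ mice, and none of those that follow passed. Col1a1 had 266, 583 and 380.4 CPM with AL and 1133, 669.6 and 909.6 with CR, which did not overlap (1.14 ± 0.685, padj = 0.293). Col1a2 had 359, 718 and 494 CPM against 1160.2, 877 and 999, likewise without overlap (0.95 ± 0.456, padj = 0.187). Col3a1 had 35.7, 120.4 and 84.1 CPM against 177, 162 and 117, and AL replicate 2 stood above CR replicate 3 (0.92 ± 0.463, padj = 0.206). Fibrillar collagens thus had higher CR than AL means without a call. Col5a1 had 73.3, 79.5 and 82.1 CPM against 92.0, 98.7 and 89.4, a small difference with little spread (0.25 ± 0.239, padj = 0.518).

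Network-forming collagens and multiplexins had values from 0.35 to 1.42 in the BMAd-Pnpla2-/- mice, for the members described here. Col4a1 had 116, 175 and 133 CPM with AL and 183, 229 and 232 with CR (0.60 ± 0.319, padj = 0.231). Col4a2 had 75.1, 134 and 102 CPM against 135, 172 and 169.7 (0.62 ± 0.314, padj = 0.213). For both genes every CR library stood just above the AL libraries. Col15a1 had 2.09, 4.75 and 2.68 CPM against 6.24, 7.20 and 8.95, also without overlap, and came close to the threshold (1.23 ± 0.407, padj = 0.0650). Col18a1 had 18.3, 25.7 and 22.4 CPM against 29.5, 29.0 and 29.4 (0.40 ± 0.352, padj = 0.484). Its CR libraries were nearly equal. Col8a2 had 0.771, 2.45 and 1.88 CPM against 3.95, 5.33 and 4.42 (1.42 ± 0.676, padj = 0.184), and Col8a1 had 13.2, 45.0 and 31.5 against 28.6, 43.7 and 42.3 (0.35 ± 0.456, padj = 0.655).

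The chains of type VI collagen followed no single pattern between the diets. Col6a1 had 78.9, 131 and 89.9 CPM with AL and 133, 135 and 119 with CR (0.37 ± 0.318, padj = 0.478). Col6a2 had 58.6, 118 and 73.0 CPM against 107, 112 and 93.3, and AL replicate 2 exceeded all CR libraries (0.32 ± 0.340, padj = 0.572). Col6a3 had 31.4, 65.7 and 48.2 CPM against 75.5, 96.8 and 92.0, without overlap (0.86 ± 0.343, padj = 0.115). Of the FACIT and other collagens, Col12a1 had 16.9, 42.1 and 34.0 CPM against 63.1, 67.7 and 50.8 (0.97 ± 0.415, padj = 0.142). Col16a1 had 11.1, 15.6 and 14.9 against 17.8, 15.2 and 12.7, Col23a1 had 4.68, 6.83 and 5.04 against 5.39, 7.25 and 7.46, and Col27a1 had 13.6, 20.2 and 13.5 against 17.1, 22.7 and 19.7. The AL and CR ranges met for all 3 of these.

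The genotypes were compared next. In AL mice no member passed, where 0.0% of all tested genes did, and no member had an unadjusted p under 0.05 either, as 3.97% of all genes did. Log2 fold changes of BMAd-Pnpla2-/- against BMAd-Pnpla2+/+ ran from -1.03 (Col25a1) to 0.81 (Col4a5) with a median of -0.13. In CR mice no member passed in edgeR, where 0.0171% of all tested genes, 3 in number, did. Here 11 of the 37 members and 23.2% of all genes had an unadjusted p under 0.05. DESeq2 called 7 members, all lower in BMAd-Pnpla2-/- mice, and 9.13% of all genes in either direction. Without BMAd-Pnpla2+/+ CR replicate 4, edgeR called 7 members and 12% of all genes. Values lay below 0 for 32 of 37 members with a median of -0.64, against -0.01 over all genes. BMAd-Pnpla2+/+ CR libraries all stood above BMAd-Pnpla2-/- CR libraries for 3 tested members, Col6a2, Col6a3 and Col26a1, and for 8.11% of all tested genes.

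Basement membrane and beaded collagens had the smallest padj in this genotype comparison. Col4a1 was at -1.08 ± 0.305 (padj = 0.0849), Col6a1 at -1.06 ± 0.304 (padj = 0.0852), Col6a2 at -1.13 ± 0.326 (padj = 0.0871), Col6a3 at -1.03 ± 0.324 (padj = 0.103) and Col4a2 at -0.94 ± 0.299 (padj = 0.105). These values share the BMAd-Pnpla2+/+ CR samples with the first comparison, so the same 4 libraries set both. In the same libraries the haematopoietic marker sum was 12770, 4220, 5327 and 14157 CPM for BMAd-Pnpla2+/+ and 20447, 23826 and 14483 CPM for BMAd-Pnpla2-/- mice, the latter all higher. Of these sums, the globin gene Hbb-bs held 8998, 1921, 2644 and 10755 CPM, and 15734, 20348 and 11168 CPM. The log2 fold changes between genotypes were 1.37 for Hbb-bs, 0.52 for S100a8, 0.16 for Elane and 0.13 for Ptprc. They were -0.41 for Ebf1 and -0.68 for Cd79a, and none of these 6 markers passed. The adipocyte marker sum ran from 1189 to 2773 and from 803 to 1311 CPM. The part of both marker sets in these collagen values was not tested. The type I chains were less far apart for their spread, at -0.84 ± 0.646 for Col1a1 (padj = 0.452) and -0.52 ± 0.428 for Col1a2 (padj = 0.485). Col14a1, a FACIT collagen, was named after its values were seen, as the highest value in this direction at 1.03 ± 0.649 (padj = 0.358). The CR libraries held 16.4, 10.2, 5.77 and 14.8 CPM for BMAd-Pnpla2+/+ and 5.02, 36.0 and 31.0 CPM for BMAd-Pnpla2-/- mice, with 1 of the 3 BMAd-Pnpla2-/- libraries at the bottom of the range.

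Whether the change with CR differed between genotypes was tested as an interaction. No member passed, 0.0% of all tested genes did, and no member had an unadjusted p under 0.05, against 10.4% of all genes. Values were below 0 for 34 of the 37 members with a median of -0.50, where 50.1% of all genes lay above 0. By class, the medians were -0.49 for fibrillar, -0.57 for network, -0.92 for beaded, -0.30 for FACIT and -0.36 for other members. The smallest padj was that of Col6a2, at -0.96 ± 0.450 (padj = 0.483), and Col1a1 was at -0.78 ± 0.896 (padj = 0.761), so a difference between genotypes in the change with CR was not shown for any tested member.

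Ratios between chains of 1 collagen differed in how steady they were, as the plot of ratios shows. Col4a1 to Col4a2 lay between 1.15 and 1.39 and Col6a1 to Col6a2 between 2.11 and 2.56 in all 14 libraries, a range of 1.21-fold in each case. Col1a1 to Col1a2 ranged from 0.807 to 2.62, or 3.25-fold. It was 2.62 and 2.17 in BMAd-Pnpla2+/+ CR replicates 1 and 2, 1.19 and 1.59 in replicates 3 and 4, and 0.807 in BMAd-Pnpla2+/+ AL replicate 4. The level of this ratio depends on the length taken for each gene, with a median of 1.57 by all exons and 0.746 by the longest transcript, but its range across libraries does not. Col5a1 to Col5a2 ranged from 1.41 to 3.15 and Col6a3 to Col6a1 from 0.146 to 0.283.

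**Figure D5:**
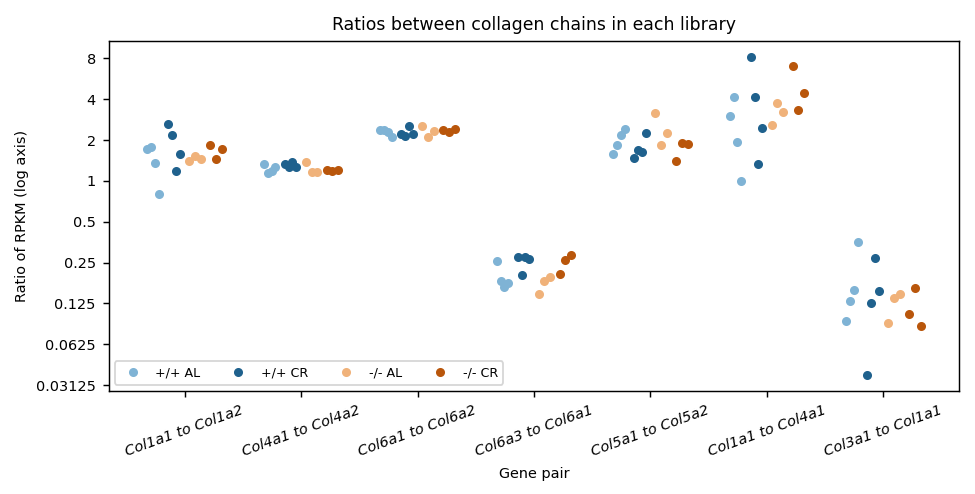
Ratio of RPKM between pairs of collagen genes in each library, on a log axis, with libraries coloured by group. Col4a1 to Col4a2 and Col6a1 to Col6a2 stay within 1.21-fold over all 14 libraries, whereas Col1a1 to Col4a1 spans 8.22-fold.

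Across classes the libraries of 1 group did not move as a block. Col1a1 to Col4a1, bone against basement membrane collagen, was chosen after the values were seen and came to 8.25, 4.15, 1.33 and 2.47 in the BMAd-Pnpla2+/+ CR libraries. Replicate 1 had the most Col1a1 (3066 CPM) with less Col4a1 (422) than replicate 3 (528), which had 617.9 CPM of Col1a1. Col11a1, a chain of cartilage fibrils likewise named after its values were seen, split these libraries as Col1a1 did, with 41.0 and 35.9 CPM in replicates 1 and 2 and 8.66 and 9.90 in replicates 3 and 4. Col3a1 to Col1a1 spanned 9.61-fold over the 14 libraries.

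Markers of the cells that make collagen, or dilute it, moved between these samples too, and in bulk tissue fewer cells of a type and less RNA per cell cannot be told apart. All 8 adipocyte markers rose with CR in BMAd-Pnpla2+/+ mice (median 2.07), from a summed 402 to 853 CPM to between 1189 and 2773, and 7 of 8 in BMAd-Pnpla2-/- mice (2.19), from 254 to 521 to between 803 and 1311. Adipocyte markers were thus detected in every library, while the 6 haematopoietic markers summed to between 4220 and 23826 CPM. Osteoblast markers rose for 4 of 9 genes in BMAd-Pnpla2+/+ mice (0.53), with sums of 408 to 706 against 614 to 1691 CPM, and for 1 of 9 in BMAd-Pnpla2-/- mice. Endothelial markers rose for 5 and fell for 1 of 7 (0.77), stromal markers of the CAR or Lepr type rose for 3 of 8 (0.58), and fibroblast markers rose for 2 and fell for 2 of 6. The haematopoietic sum was 4220 and 5327 CPM in BMAd-Pnpla2+/+ CR replicates 2 and 3 and at least 9380 in every other library, and 2 of its 6 genes fell. In those libraries Hbb-bs had 1921 and 2644 CPM and S100a8 1115 and 1537 CPM, against at least 4961 and 2020 elsewhere. Chondrocyte markers rose for none of 3 tested, with sums from 19.9 to 316 CPM and the highest in BMAd-Pnpla2+/+ CR replicate 2. In that library Comp alone had 314 CPM, and Sox9 and Chad had 1.02 and 1.20 CPM. Of the remaining lists, pericyte and smooth muscle markers rose for 2 of 6, tendon markers for 1 of 3, keratinocyte markers for 1 of 2, and Schwann cell and skeletal muscle markers for none of 4 each, in BMAd-Pnpla2+/+ mice. The skeletal muscle sum was 35.0 and 115 CPM in BMAd-Pnpla2-/- CR replicates 2 and 3 and between 6.72 and 26.3 CPM in the other 12 libraries, and none of its 4 genes passed in BMAd-Pnpla2-/- mice. The part of these markers in the collagen values was not tested.

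Genes that make, process and bind collagen moved partly with it in BMAd-Pnpla2+/+ mice. Of 17 tested genes of collagen synthesis and folding, 7 rose and 1 fell, the largest changes being those of P4ha2, a prolyl hydroxylase (1.24, padj = 0.00704), and Plod2, a lysyl hydroxylase (1.21, padj = 0.0087), and the lowest called values those of the galactosyltransferase Colgalt1 (-0.50, padj = 0.0207) and of Plod1 (0.46, padj = 0.0391). Of 11 genes of processing and crosslinking, 5 rose, led by the lysyl oxidases Lox (1.80, padj = 0.00398) and Loxl1 (1.02, padj = 0.0219), with Adamts14 (0.87, padj = 0.00795) and Bmp1 (0.88, padj = 0.0183), proteases that trim procollagen, at the lower end. In BMAd-Pnpla2-/- mice 2 of the synthesis genes rose and 2 fell, and Lox alone of the crosslinking list rose (1.81, padj = 0.0145). Ppib, of the synthesis and folding list, was higher in BMAd-Pnpla2-/- than in BMAd-Pnpla2+/+ CR mice (0.97, padj = 0.0126). It had 50.6, 47.5 and 48.1 CPM in the BMAd-Pnpla2-/- CR libraries and 20.9 to 30.5 CPM in every other library. That group is also the one of the other library type, and the 2 cannot be told apart.

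Partners of basement membrane collagens rose for 9 of 16 tested genes in BMAd-Pnpla2+/+ mice (median 1.09) and for 2 in BMAd-Pnpla2-/- mice (0.76). The peroxidase Pxdn, which crosslinks type IV collagen, rose by 1.90 (padj = 0.00294) and nidogen 2 (Nid2) by 1.89 (padj = 0.00177), and the smallest rises were those of the laminin chains Lamc1 (0.78, padj = 0.0303) and Lama5 (1.01, padj = 0.0258). Pxdn and Nid2 were also those that rose in BMAd-Pnpla2-/- mice, by 1.44 (padj = 0.0274) and 1.47 (padj = 0.0174). Of 10 collagen receptors, 4 rose and 2 fell in BMAd-Pnpla2+/+ mice. The integrin chain Itga10 (1.53, padj = 0.00477) and the discoidin receptor Ddr1 (1.43, padj = 0.00370) had the highest values and the receptors of blood cells Gp6 (-1.04, padj = 0.0251) and Lair1 (-0.32, padj = 0.0198) the lowest. No receptor passed in BMAd-Pnpla2-/- mice.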

How the data were processed

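RNA of 14 samples was sequenced by the authors with a strand-specific mRNA protocol (paired-end 100 bp reads), checked with FastQC 0.11.9, aligned to mm10 with STAR and tested with DESeq2. The version of STAR and its annotation are not given in the sources used here. The authors deposited raw counts per gene for each sample, unstranded and by strand, and a matrix of counts of 23441 genes. In that matrix, 11 samples hold second-strand counts and the 3 BMAd-Pnpla2-/- CR samples unstranded counts, so unstranded counts were used for all.

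Counts of the matrix genes were filtered with filterByExpr, scaled by TMM and fitted over 4 groups with the quasi-likelihood test of edgeR 4.0.16 (limma 3.58.1, R 4.3.3), two-sided, with Benjamini-Hochberg adjustment over 17494 genes in each of 5 comparisons. The standard error is the log2 fold change over the square root of F. Calls needed padj under 0.05, and the authors' criteria add an absolute log2 fold change over 1. Exon lengths and coordinates are from GENCODE M21 (GRCm38). Promoter windows are from RefSeq. DESeq2 1.42.0 was an alternative, and figures used Python 3.11.15 with matplotlib 3.10.9. The scripts were tested on simulated counts with known changes.

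The members, gene lists and tests were chosen with earlier results of these data known. Per-sample values are given for Pnpla2, for the 4 fibrillar, 3 network, 3 beaded, 2 FACIT and 3 other members with the highest mean CPM, for any member called between genotypes or in the interaction, and for the largest and smallest called change with CR in BMAd-Pnpla2+/+ mice. From each companion list, up to 2 largest and 2 smallest called changes are named, and Ppib is named for its call between genotypes. Nothing states that samples of a group came from separate litters or days, so p-values measure the spread between pools of mice. The Pnpla2 count covers the whole gene, and the deletion removes only some exons. Listed markers outside the matrix were not analysed here.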

Additional observations from a re-analysis of the deposited data

Results flagged for a closer look

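In groups of 4, 9 of the 74 sets of values of tested members had 1 library far from the other 3 by Dixon's criterion. Its chance rate of about 1 in 20 is for independent sets. These sets share libraries, so an excess cannot be read from the count. AL replicate 1 of BMAd-Pnpla2+/+ mice stood out for Col4a1 at 277 CPM (others 156 to 160.1), for Col4a2 at 184 (others 109 to 121), for Col15a1 at 8.91 (others 3.51 to 4.02) and for Col4a4 at 0.587 (others 0.365 to 0.384). BMAd-Pnpla2+/+ CR replicate 2 stood out for Col8a2 at 18.8 CPM (others 2.35 to 4.56), Col26a1 at 3.05 (others 0.961 to 1.17) and Col6a6 at 1.57, and AL replicate 2 for Col6a6 at 1.497. Col9a3 was apart in BMAd-Pnpla2+/+ CR replicate 1 at 2.59 CPM (others 1.53 to 1.58).

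Reads on the strand opposite to the gene were not analysed separately in any comparison. In the 11 libraries that kept strand, at most 4.62% of all strand-assigned reads of a library lay on that strand, and for 9 members the share was higher. Col10a1, which overlaps an exon of the protein-coding gene Nt5dc1 on the opposite strand by 18 bases, had 88.6%. Col4a4 had 46.9%, Col4a6 34.8% and Col4a3 25%, all at low counts. Col6a6 had 9.90%, Col6a4 9.25%, Col27a1 7.999%, Col15a1 5.77% and Col17a1 5.63%. Counts without strand include such reads, except where they cannot be assigned to 1 gene, and Col10a1 had 28 unstranded reads against 39 on the first and 5 on the second strand.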

How the results depend on the processing

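Counts within 1.5 times of those reported, and of 0 where 0 was reported, were had under 123 of 147 alternatives. Of these, 21 were counts of 0 between genotypes in AL mice, 17 between genotypes in CR mice and 20 for the interaction. Each count with CR in BMAd-Pnpla2-/- mice moved under 7 alternatives and held under 14. In BMAd-Pnpla2+/+ mice with CR, leaving out 1 library gave 9 to 22 members at padj under 0.05 and 6 to 20 past both criteria, with 9 members called in every such fit. In the same fits, 12.7% to 34.2% of all tested genes passed, and shares of all genes here are at padj under 0.05 alone. Without AL replicate 3, AL replicate 4 or CR replicate 2, the second count was 8, 10 and 6. The 8 samples alone gave 13 and 10, and 16.3% of all genes passed there. In BMAd-Pnpla2-/- mice, both counts ran from 1 to 3 without 1 library, where 1.38% to 13.8% of all genes passed. They reached 2 or 3 without BMAd-Pnpla2+/+ AL replicate 1, CR replicate 2 or CR replicate 4 or without BMAd-Pnpla2-/- AL replicate 2. They were 3 and 3 with the matrix as deposited (22.3% of all genes), 2 and 2 with DESeq2 (17.7%), and 7 and 6 in the 6 samples alone (16.2%). For BMAd-Pnpla2-/- against BMAd-Pnpla2+/+ CR mice, the count of 0 became 4 with the deposited matrix, where 14% of all genes passed. It was 7 with DESeq2 (9.13% of all genes) and 0 to 7 without 1 library (0% to 12%). Correlations of same-numbered samples ran from -0.374 to 0.326, and so few samples cannot show whether the replicate numbers pair them. With the replicate block 20 members passed in BMAd-Pnpla2+/+ mice (24% of all genes), 1 in BMAd-Pnpla2-/- mice (10.3%) and 0 in the other comparisons (at most 0.0114%). No interaction and no genotype difference in AL mice was called for a member under any alternative, where at most 3.87% and 0.109% of all genes were. Among single members, signs turned for values that were not called. With CR in BMAd-Pnpla2-/- mice, leaving out 1 library gave -0.0483 to 0.77 for Col8a1 and -0.0486 to 0.25 for Col16a1 (both lowest without AL replicate 1) and -0.91 to 0.59 for Col6a5 (below 0 without AL replicate 1, at -0.23, or CR replicate 1), and Col6a5 was at -0.00338 without the filter and -0.94 with the replicate block. Between genotypes under CR the ranges were -0.37 to 0.13 for Col8a1 and -0.99 to 0.35 for Col8a2, above 0 without BMAd-Pnpla2+/+ CR replicate 2, and -0.70 to 0.12 for Col11a1, above 0 without replicate 1. The causes were not tested. Scaling by library totals rather than TMM put the all-gene median for CR in BMAd-Pnpla2-/- mice at 0.12, against 0.05. The 5 members that were not tested had at most 97 reads over the 14 libraries.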
